A study of Mus musculus with 64 samples.

Results

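The orexin and melanin-concentrating hormone (MCH) systems are described here by 5 genes: the peptide precursors Hcrt and Pmch and the receptors Hcrtr1, Hcrtr2 and Mchr1. They were taken from the count table by gene identifier, and each of the 5 symbols matched 1 of the 55401 genes listed. All 5 passed the filter on low counts, Hcrt and Pmch through the hypothalamus.

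The series asked how a single dose of psilocybin changes gene expression in brain regions of mice shortly after the injection and weeks later. Polyadenylated RNA was sequenced from the hypothalamus, dissected whole, and from the prefrontal cortex (PFC, called frontal cortex in the labels) of 32 mice. All mice were chow-fed, group-housed C57BL/6J males aged 10 weeks at the injection, with no other genetic or drug manipulation, and tissue was taken in the morning, 4 h into the light phase. Treated mice received psilocybin intraperitoneally at 3 mg/kg and control mice isotonic saline, and each was harvested either 3 h or 4 weeks later, which gives 8 groups of 8 libraries by region, treatment and harvest. The mice of the 4 weeks harvest were therefore also older than those of the 3 h harvest, and time since the injection and age cannot be told apart. Replicate numbers are cage numbers. Within a region, cages 1 to 4 and cages 5 to 8 were extracted as separate pools, and as no pool held both regions, region and extraction cannot be told apart.

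Of 64 libraries, 62 held at least 1000000 counts and entered the comparisons, with 8061033 to 70361839 counts each (median 18287978.5). The 2 others held 211111 counts (saline, hypothalamus, 3 h, replicate 2) and 200066 counts (psilocybin, PFC, 4 weeks, replicate 3), which leaves 7 libraries in each of these groups and 30 mice with both regions. The tissue labels were compared with marker genes. The summed level of 8 hypothalamic markers, among them Avp, Oxt, Pomc and Agrp, lay between 222 and 2632 CPM, counts scaled to a library of 1000000, in hypothalamus libraries and between 1.56 and 15.9 CPM in PFC libraries. Psilocybin replicate 5 of the hypothalamus at 4 weeks had the highest hypothalamic marker sum of its region (2632 CPM, median 453 CPM) and was given a weight of 0.0276 when libraries were weighted by their quality with voom. Psilocybin replicate 7 of the PFC at 3 h was given a weight of 0.120. The comparisons of psilocybin with saline, the spread within groups and the genes most alike each member are also given without them.

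Orexin, also called hypocretin, and MCH are neuropeptides made by separate populations of neurons intermingled in the lateral hypothalamic area, which send axons through much of the brain including the cortex. Orexin neurons are active in wakefulness and are known for their part in arousal, reward and feeding, and their loss causes narcolepsy. MCH neurons are most active in sleep, and MCH promotes food intake and energy storage. Both peptides act through G protein-coupled receptors in the cells their axons reach, so that the mRNA of a peptide and that of its receptors need not be found in the same place.

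Hcrt (ENSMUSG00000045471.4) lies on chromosome 11 of GRCm38 from 100761069 to 100762928 on the minus strand and encodes the precursor that is cut into orexin A and orexin B. Pmch (ENSMUSG00000035383.7) lies on chromosome 10 from 88091072 to 88092375 on the plus strand and encodes the precursor of MCH. Both are compact genes with 749 bases of annotated exon. Their promoters, the 250 bases before the RefSeq start in GRCm38.p6, are printed because the mRNAs of both genes were nearly restricted to the hypothalamus in these data. Each is given 5′ to 3′ on the strand of its gene, with the motif TATAAA in capitals. The Hcrt promoter is chr11:100762932-100763181 (minus strand) and the Pmch promoter is chr10:88090822-88091071 (plus strand).
Hcrt: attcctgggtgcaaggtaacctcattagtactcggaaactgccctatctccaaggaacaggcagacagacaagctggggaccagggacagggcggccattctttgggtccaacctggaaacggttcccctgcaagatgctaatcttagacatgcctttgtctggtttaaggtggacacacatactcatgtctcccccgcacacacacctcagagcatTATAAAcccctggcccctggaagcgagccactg
Pmch: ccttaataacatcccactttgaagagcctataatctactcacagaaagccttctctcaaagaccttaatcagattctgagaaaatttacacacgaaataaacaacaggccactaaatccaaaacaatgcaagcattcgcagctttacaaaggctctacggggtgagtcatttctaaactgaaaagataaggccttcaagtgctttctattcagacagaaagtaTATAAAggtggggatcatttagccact
The motif TATAAA began 33 bases before the start of Hcrt and 27 bases before that of Pmch. Searched on both strands, TATAAA was present in 4063 of 32851 promoters of this length, a share of 12.4%, and it was not found in the promoters of the 3 receptor genes. The E-box CACGTG, present in 6.02% of these promoters, was found only in that of Mchr1 among the 5 genes. The base composition of the windows also differed, with 38.4% G and C for Pmch, 53.6% for Hcrt, 55.2% for Hcrtr2, 57.2% for Mchr1 and 69.2% for Hcrtr1. For Hcrtr1, which has 3 promoters in RefSeq, the value and the search are for 1 of them.

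Hcrtr1 (ENSMUSG00000028778.15; chromosome 4, 130130217 to 130139359, minus strand) encodes the orexin receptor OX1R, which binds orexin A more strongly than orexin B. Hcrtr2 (ENSMUSG00000032360.16; chromosome 9, 76225880 to 76323611, minus strand) encodes OX2R, which binds both peptides and is the receptor tied to the stability of wakefulness. Mchr1 (ENSMUSG00000050164.11; chromosome 15, 81235499 to 81238964, plus strand) encodes the MCH receptor of rodents. Pmch overlaps 944 bases of Parpbp on the opposite strand, which had a median of 16 counts in hypothalamus and 9 counts in PFC libraries, where Pmch had a median of 3, and Hcrtr2 overlaps 1270 bases of Gm27234, which had a median of 0 counts. Reads from these stretches could be assigned to either gene only by strand.

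In the hypothalamus, the peptide mRNAs were more abundant than those of the 3 receptors. Levels between genes were compared in CPM per kilobase of exon. Over the 31 hypothalamus libraries the median level was 173 CPM per kilobase for Pmch, 46.9 for Hcrt, 4.77 for Mchr1, 2.56 for Hcrtr1 and 1.39 for Hcrtr2. Each neighbouring pair in this order was compared within libraries. Pmch was above Hcrt in 31 of 31 libraries, by 4.42-fold on average (geometric mean). Hcrt was above Mchr1 in 30 of 31 libraries, the exception being psilocybin replicate 6 at 3 h. Mchr1 exceeded Hcrtr1 in 31 of 31 libraries (1.81-fold), and Hcrtr1 exceeded Hcrtr2 in 31 of 31 (1.83-fold). The order in the PFC was Mchr1 (median 9.29 CPM per kilobase), Hcrtr1 (0.964) and Hcrtr2 (0.325), with Mchr1 above Hcrtr1 in 31 of 31 libraries (9.67-fold) and Hcrtr1 above Hcrtr2 in 28 of 31 (2.33-fold). A two-sided permutation test that flips the sign of each library's log ratio gave an adjusted p of 2e-05 for each of the 6 neighbouring pairs, the smallest that this two-sided test, which counts the smaller tail for both sides, can give with 100000 resamples. The pairs and their order were taken from the medians of these same libraries, so the p-values are no independent support for the order. The orexin receptors stood in the same order in both regions on this scale.

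**Figure D1:**
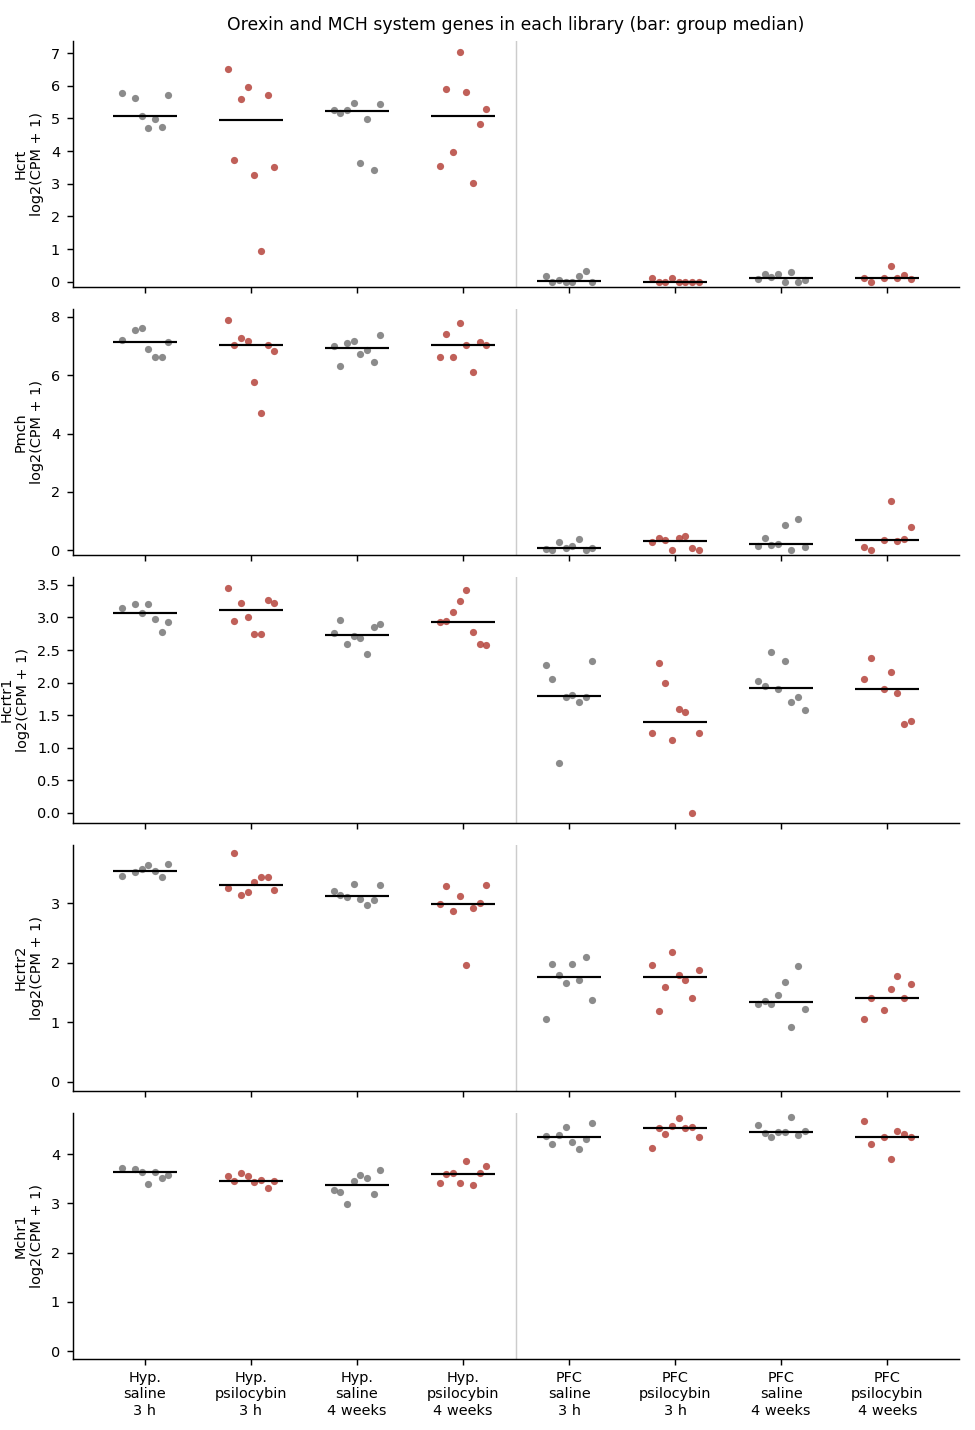
Level of each gene as log2(CPM + 1) in every library of the 8 groups (grey saline, red psilocybin), with a point for each library and a bar at the group median. Hcrt and Pmch reach 129 and 236 CPM in the hypothalamus and stay at or below 0.395 and 2.19 CPM in the PFC, while Mchr1 sits higher in the PFC than in the hypothalamus.

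Hypothalamus and PFC of saline-treated mice were compared to place each gene. The 3 receptor genes differed between the regions at both harvests, Hcrtr1 and Hcrtr2 higher in the hypothalamus and Mchr1 higher in the PFC. Hcrt and Pmch passed the filter on low counts through the hypothalamus alone and so had to differ, and their values are given as a description with no test. Of all 18971 genes tested, 54.9% differed between the regions at 3 h and 55.2% at 4 weeks, so a difference between the regions was common among the genes tested. Pmch in saline-treated mice lay between 96.8 and 197 CPM (median 139 CPM) in the hypothalamus at 3 h, and between 0 and 5 counts per library in the PFC, 14 counts in all 8 libraries. Hcrt lay between 25.3 and 53.6 CPM (median 32.9 CPM) in the hypothalamus and had 12 counts in all 8 PFC libraries, 4 of which had none. No PFC library came near the lowest hypothalamus library for either peptide. The log2 difference was 10.49 (standard error 0.48) for Pmch and 8.83 (standard error 0.78) for Hcrt. At 4 weeks it was 8.79 (standard error 0.42) for Pmch and 8.07 (standard error 0.74) for Hcrt. These folds depend on a handful of PFC reads and are imprecise, with a 95% interval of 155-fold to 1338-fold for Hcrt at 3 h.

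The receptors were expressed in both regions. Hcrtr2 lay between 9.79 and 11.6 CPM (median 10.6 CPM) in the hypothalamus and between 1.07 and 3.28 CPM (median 2.37 CPM) in the PFC of saline-treated mice at 3 h, with no overlap. It was 4.66-fold higher in the hypothalamus at 3 h and 4.73-fold at 4 weeks (log2 2.22, standard error 0.19, and log2 2.24, standard error 0.19; Benjamini-Hochberg adjusted p = 8.85e-16 and 5.74e-16 by edgeR's quasi-likelihood fit). Hcrtr1 was 2.71-fold higher at 3 h and 1.91-fold higher at 4 weeks (log2 1.44, standard error 0.27, and log2 0.94, standard error 0.26; adjusted p = 5.98e-06 and 0.00160 from the same edgeR test). Its 4 weeks groups overlapped, between 4.44 and 6.82 CPM in the hypothalamus and between 2.00 and 4.55 CPM in the PFC, while those of Hcrtr2 and Mchr1 did not, nor did those of any of the 3 receptors at 3 h. Of all genes, 27.8% did not overlap between the regions at 3 h and 29.1% at 4 weeks.

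Mchr1 went the other way. In saline-treated mice at 3 h it lay between 9.58 and 12.3 CPM (median 11.4 CPM) in the hypothalamus and between 16.3 and 23.9 CPM (median 19.3 CPM) in the PFC. At 4 weeks it lay between 6.92 and 11.8 CPM (median 9.36 CPM) and between 19.4 and 26.1 CPM (median 21.0 CPM). Every PFC library exceeded every hypothalamus library of the same harvest. The PFC level was 1.75-fold higher at 3 h (95% interval 1.53 to 2.01) and 2.27-fold higher at 4 weeks (1.99 to 2.59), with Benjamini-Hochberg adjusted p = 2.30e-10 and 1.31e-16 by edgeR's quasi-likelihood fit. The mRNA of the MCH receptor was more abundant in the region where the mRNA of its ligand's precursor was nearly undetected.

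Levels were also set side by side mouse by mouse, over the 30 mice with both regions and all treatments. The saline-treated mice among them are those compared above, and the values are a description with no test. Hcrtr1 and Hcrtr2 were each higher in the hypothalamus in 30 of 30 mice, and Mchr1 was higher in the PFC in 30 of 30. Hcrt and Pmch, which passed the filter through the hypothalamus alone, were also higher there in 30 of 30. The share of all genes with the same direction in every mouse was not counted. The PFC level of Mchr1 was a median 1.98 times the hypothalamic level of the same mouse, with mice between 1.04 and 2.80. Hcrtr2 in the hypothalamus was a median 4.51 times its PFC level (1.49 to 10.5). Hcrtr1 in the PFC was a median 35.8% of the hypothalamic level, and the peptide mRNAs were a median 0.101% (Hcrt) and 0.108% (Pmch) of it.

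**Figure D2:**
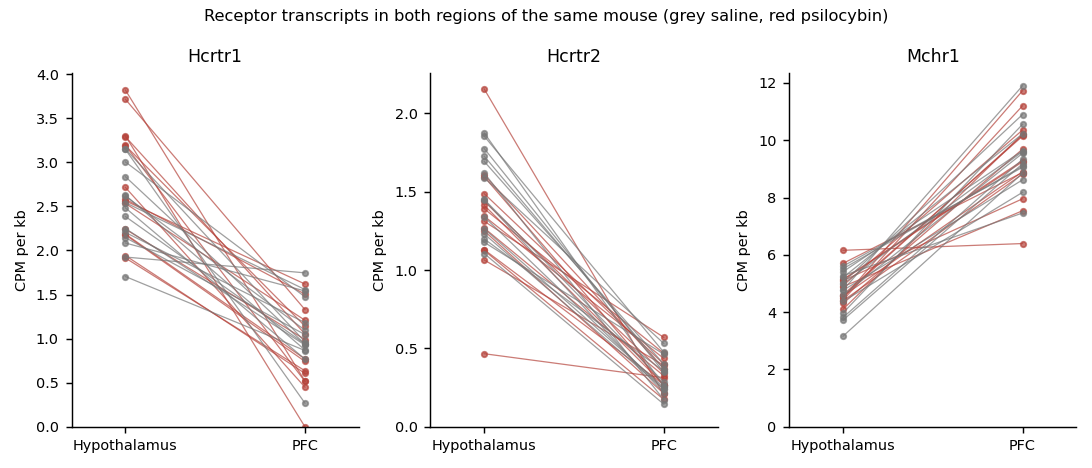
Level of each receptor gene in CPM per kilobase of exon in the hypothalamus and in the PFC, with a line for each of the 30 mice with both regions (grey saline, red psilocybin). Lines for Hcrtr1 and Hcrtr2 run down from the hypothalamus to the PFC in 30 of 30 mice, and those for Mchr1 run up in 30 of 30.

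Other genes of these neurons and of their signalling were counted beside the 5. Of 13 genes known from orexin, MCH or neighbouring lateral hypothalamic neurons, 11 also passed the filter on low counts in the PFC libraries alone. Of these, 8 were higher and 3 lower in the hypothalamus at 3 h, and 8 were higher and 2 lower at 4 weeks. Among all genes, 25.8% were higher and 29.1% lower at 3 h (25.7% and 29.5% at 4 weeks). The 2 others, Gal, which encodes galanin, and Qrfp, passed through the hypothalamus alone and so had to be higher there. Lhx9, a transcription factor of developing orexin neurons, was higher by log2 4.96 (standard error 0.48) at 3 h, and Cartpt, found in MCH neurons, by log2 4.46 (standard error 0.33). The members lower in the hypothalamus were Nptx2 (log2 -1.53), a secreted pentraxin of excitatory synapses, Lepr (log2 -0.94), the leptin receptor, and Igfbp3 (log2 -0.31 at 3 h only). Of 11 markers of other hypothalamic nuclei, 6 passed the filter through the hypothalamus alone and had to be higher there. Of the 5 that also passed in the PFC, Agrp, Avp, Hdc and Pomc were higher at each harvest, and Npy, which is also made by cortical interneurons, was lower (log2 -2.26 at 3 h).

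Genes for peptide processing and for receptor signalling were counted in the same way, beside the same 25.8% of all genes higher and 29.1% lower in the hypothalamus at 3 h and 25.7% and 29.5% at 4 weeks. Of 11 processing and secretion genes, 5 were higher there at each harvest and 3 (3 h) or 2 (4 weeks) were lower. Scg2, a granin of secretory granules, was higher by log2 1.93 at 3 h and Qpct, which forms the pyroglutamate end that orexin A carries, by log2 1.52, whereas the prohormone convertase Pcsk2 was lower (log2 -1.16). Of 12 genes for G proteins, phospholipase C beta and arrestins, 2 were higher and 6 lower in the hypothalamus at each harvest. The higher genes were Plcb4 (log2 0.83 at 3 h) and Gnai2 (log2 0.45), and Plcb1, which acts downstream of Gq-coupled receptors such as those of orexin, was lower (log2 -1.71 at 3 h and -1.72 at 4 weeks).

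Hcrt and Pmch varied widely between hypothalamus libraries of the same group. In bulk samples, fewer cells of a type and less RNA per cell cannot be told apart. The within-group SD of Hcrt on the log2(CPM + 1) scale was 1.27, larger than that of 99.6% of 15476 genes, and that of Pmch was 0.63, larger than 98.0%. The median gene had an SD of 0.22. The receptors were much steadier in the hypothalamus, with SDs of 0.23 for Hcrtr1, 0.26 for Hcrtr2 and 0.16 for Mchr1. In the PFC, Hcrtr1 had an SD of 0.49, larger than that of 96.5% of genes there, beside 0.31 for Hcrtr2 and 0.18 for Mchr1. Psilocybin replicate 7 at 3 h, with 0 counts of Hcrtr1, widened that spread, and without it the SD of Hcrtr1 in the PFC was 0.41, larger than that of 94.0% of genes. Without psilocybin replicate 5 at 4 weeks the hypothalamic SD was 0.16 for Hcrtr2, 1.28 for Hcrt and 0.64 for Pmch. Psilocybin-treated groups spread more than saline-treated groups for Hcrt, with coefficients of variation of 90.3% against 32.6% at 3 h and 93.9% against 42.6% at 4 weeks. This difference in spread was not tested. The lowest Hcrt library was psilocybin replicate 6 at 3 h, with 25 counts of 26689577 (0.910 CPM), and the highest was psilocybin replicate 4 at 4 weeks with 129 CPM.

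Libraries with much Hcrt also had much Pmch. Over the 31 hypothalamus libraries, with the mean of each group removed, log2(CPM + 1) of Hcrt and Pmch had a Pearson's r of 0.853 and a Spearman's rho of 0.761 (two-sided permutation test, p = 1e-05 for each, the smallest these resamples can give, adjusted p = 0.00013 over the 13 pairs of members compared). Without the 2 libraries farthest from the median of Pmch, r was 0.748. It was 0.732 within cages 1 to 4 and 0.874 within cages 5 to 8, and the lowest value with 1 library left out was 0.775, without psilocybin replicate 6 at 3 h. Both peptides were also related to the orexin receptor Hcrtr1 by Pearson's r, a relation that did not pass by rank. For Hcrt and Hcrtr1 r was 0.495 (permutation p = 0.00467, adjusted p = 0.0202) and rho was 0.459 (adjusted p = 0.0658). For Pmch and Hcrtr1 r was 0.489 (permutation adjusted p = 0.0202) and rho was 0.430 (adjusted p = 0.0725). The other 10 pairs had adjusted p-values of r above the threshold of 0.05.

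**Figure D3:**
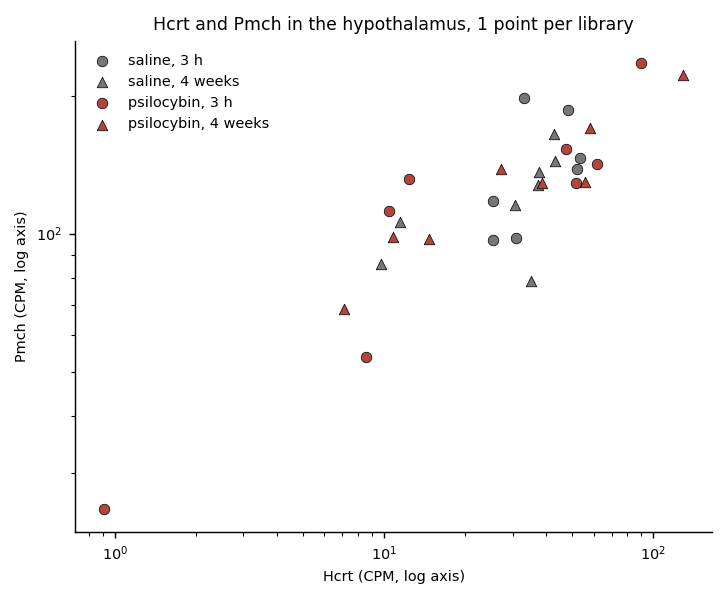
Hcrt against Pmch in CPM on log axes, with a point for each of the 31 hypothalamus libraries (grey saline, red psilocybin, circles 3 h, triangles 4 weeks). The points rise together, and the lowest on both axes is psilocybin replicate 6 at 3 h with 0.910 CPM of Hcrt and 25.0 CPM of Pmch.

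Marker lists of regions and cell types were set beside this spread, 96 relations in all. The astrocyte list (Gfap, Aqp4, Aldh1l1) moved against both peptides, with r = -0.613 for Hcrt (permutation p = 0.00029, adjusted p = 0.0139) and r = -0.612 for Pmch (permutation p = 0.00015, adjusted p = 0.0139). By rank, rho was -0.538 for Hcrt (adjusted p = 0.0660) and -0.598 for Pmch (adjusted p = 0.0278). Without the 2 libraries farthest from the median of the list, r was -0.608 and -0.624. Within cages 1 to 4 and 5 to 8 it was -0.664 and -0.346 for Hcrt, and -0.474 and -0.473 for Pmch. All 3 genes of the list were above 1 CPM in the median hypothalamus library, and its sum ranged from 491 to 1101 CPM after psilocybin and from 474 to 977 CPM after saline at 3 h, and from 440 to 1044 CPM and 468 to 990 CPM at 4 weeks. Psilocybin replicate 6 at 3 h, the library lowest in Hcrt and Pmch, had the highest astrocyte sum (1101 CPM, median 695 CPM), while its hypothalamic marker sum was 655 CPM, above the median of 453 CPM. The oligodendrocyte list moved against Pmch by rank (rho = -0.609, permutation adjusted p = 0.0278), while its r of -0.516 did not pass (permutation adjusted p = 0.0566), and r was -0.552 without the 2 farthest libraries, -0.387 within cages 1 to 4 and -0.350 within cages 5 to 8. The sum of that list ranged from 4596 to 8161 CPM over the hypothalamus libraries. The microglia list (Cx3cr1, P2ry12, Tmem119, C1qa) had r = -0.426 with Hcrt and -0.481 with Pmch (permutation adjusted p = 0.123 and 0.106), and -0.654 and -0.628 without the 2 farthest libraries. Its r within cages 1 to 4 and 5 to 8 was -0.419 and -0.0788 for Hcrt and -0.192 and -0.300 for Pmch. The hypothalamic marker list had r = -0.103 with Hcrt (permutation p = 0.574) and -0.383 without the 2 farthest libraries, and with Pmch r was -0.234 (permutation p = 0.192) and -0.400. The part of astrocyte, oligodendrocyte and microglia content in the spread of the peptides was not tested.

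Genes whose levels followed each member most closely were listed, with group means and extraction pools removed, among 15486 genes in the hypothalamus and 15320 in the PFC with a mean of at least 1 CPM. The values are descriptions over 31 libraries that share depth and dissection. For Hcrt they were Zfr2 (r = 0.802), Slc27a3 (0.781) and Dennd1a (0.775), and for Pmch they were Crhbp (0.808), Slc27a3 (0.756) and Gfra2 (0.728). Hcrtr1 was followed by Pla2g6 (0.797), Rspo1 (0.779) and Tac2 (0.765) in the hypothalamus and by E230016M11Rik (0.769), Ttc37 (0.730) and AC153155.1 (0.721) in the PFC. Hcrtr2 was followed by Cadm1 (0.905), Unc5d (0.904) and Xpot (0.899) in the hypothalamus and by Gm37621 (0.690), Ttc30b (0.681) and Arf4 (0.679) in the PFC. Mchr1 was followed by 2900076A07Rik (0.701), Gm44623 (0.700) and Btbd19 (0.679) in the hypothalamus and by Gabrd (0.789), Lzts1 (0.717) and Wscd2 (0.678) in the PFC. Without psilocybin replicate 5 at 4 weeks, a library low in Hcrtr2, the hypothalamic r of Hcrtr2 was 0.753 with Cadm1, 0.742 with Unc5d and 0.730 with Xpot. Without psilocybin replicate 7 at 3 h, the PFC r of Hcrtr1 was 0.737 with E230016M11Rik, 0.570 with Ttc37 and 0.585 with AC153155.1, and the 3 highest were then Fam57b, Pdzd7 and Mafg. In the same settings Crhbp and Gabrd still came first for Pmch in the hypothalamus and Mchr1 in the PFC, and Sf1 (0.830) came first for Hcrt. Over all 31 libraries Slc27a3, a fatty acid transport protein, was the gene shared by the lists of both peptides.

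Psilocybin was compared with saline in the hypothalamus at 3 h. None of the 5 genes passed an adjusted p of 0.05, against a background of 0% of all genes by edgeR's quasi-likelihood fit, with 337 genes at an unadjusted p under 0.05 and 0 called by DESeq2. Hcrt lay between 0.910 and 89.9 CPM (median 29.8 CPM) after psilocybin and between 25.3 and 53.6 CPM (median 32.9 CPM) after saline. The psilocybin group reached beyond the saline group at both ends, with 4 libraries below its lowest value and 2 above its highest. The log2 difference was -0.34 (standard error 0.43, 95% interval -1.21 to 0.52, Benjamini-Hochberg adjusted p = 1 by edgeR's quasi-likelihood fit). It was 0.25 within cages 1 to 4 and -0.93 within cages 5 to 8, and -0.13 without psilocybin replicate 6.

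Pmch lay between 25.0 and 236 CPM (median 130.4 CPM) after psilocybin and between 96.8 and 197 CPM (median 139 CPM) after saline at 3 h. Its groups overlapped, with a log2 difference of -0.26 (standard error 0.26, 95% interval -0.78 to 0.25). Hcrtr2 lay between 7.81 and 13.3 CPM (median 8.87 CPM) after psilocybin and between 9.79 and 11.6 CPM (median 10.6 CPM) after saline, and 5 psilocybin libraries lay below all saline libraries (log2 -0.20, standard error 0.18, interval -0.55 to 0.15). Mchr1 lay between 8.97 and 11.3 CPM (median 10.03 CPM) and between 9.58 and 12.3 CPM (median 11.4 CPM). No psilocybin library exceeded the saline median of Mchr1 at 3 h, and the log2 difference was -0.13 (standard error 0.10, interval -0.33 to 0.068). The summed level of 5 striatal markers (Drd1, Drd2, Adora2a, Ppp1r1b and Rgs9) lay between 82.0 and 148 CPM after psilocybin and between 78.5 and 263 CPM after saline, with 5 of 5 markers estimated lower (median log2 -0.54) and none called. Hcrtr1, between 5.68 and 9.96 CPM after psilocybin and between 5.86 and 8.22 CPM after saline, had a log2 difference of 0.040 (standard error 0.26). The adjusted p of each of these 4 genes was 1 in the same edgeR test.

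In the hypothalamus at 4 weeks, none of the 5 genes was called either, again against 0% of all genes. There were 1823 genes at an unadjusted p under 0.05 by edgeR's quasi-likelihood fit, and DESeq2 called 13, none of them a member. Hcrt lay between 7.10 and 129 CPM (median 32.9 CPM) after psilocybin and between 9.71 and 42.9 CPM (median 36.3 CPM) after saline. The log2 difference of Hcrt, 0.47 (standard error 0.41, 95% interval -0.35 to 1.29, Benjamini-Hochberg adjusted p = 0.753 by edgeR's quasi-likelihood fit), rested on psilocybin replicate 4 and was 0.13 without it. Pmch lay between 68.5 and 222 CPM (median 129 CPM) after psilocybin and between 78.7 and 165 CPM (median 121 CPM) after saline, with a log2 difference of 0.11 (standard error 0.25).

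Mchr1 had the smallest p of the 5 in this comparison. It lay between 9.42 and 13.5 CPM (median 11.2 CPM) after psilocybin and between 6.92 and 11.8 CPM (median 9.36 CPM) after saline. All 8 psilocybin libraries exceeded the saline median and 2 exceeded every saline library. The log2 difference was 0.23 (standard error 0.097, 95% interval 0.032 to 0.42, Benjamini-Hochberg adjusted p = 0.452 by edgeR's quasi-likelihood fit), with 0.28 in cages 1 to 4 and 0.17 in cages 5 to 8. All 5 striatal markers were also estimated higher after psilocybin (median log2 0.38), and their sum lay between 80.5 and 327 CPM after psilocybin and between 81.9 and 282 CPM after saline. Over the 31 hypothalamus libraries Mchr1 and that sum had r = 0.357 (permutation adjusted p = 0.168) and rho = 0.373 (permutation adjusted p = 0.129), and r was 0.238 without the 2 libraries farthest from the median of the sum, 0.293 within cages 1 to 4 and 0.373 within cages 5 to 8. Thalamic and hypothalamic markers also differed in sign between the harvests, with none called. The 5 thalamic markers were estimated lower after psilocybin at 4 weeks (median log2 -0.32) and higher at 3 h (0.17), and of the 8 hypothalamic markers 7 were estimated higher at 4 weeks (0.37) and 7 lower at 3 h (-0.073). With Mchr1 these sums had r = -0.017 (thalamic) and 0.132 (hypothalamic). Without psilocybin replicate 5 the median log2 difference at 4 weeks was -0.27 over the thalamic and 0.11 over the hypothalamic markers. Over the 5 striatal markers it was then 0.40. The summed level of 4 choroid plexus markers lay between 10.6 and 227 CPM after psilocybin and between 8.82 and 1186 CPM after saline. The part of striatal, thalamic, hypothalamic or choroid plexus tissue in the level of Mchr1 was not tested. Hcrtr1 (median 6.65 CPM after psilocybin and 5.67 CPM after saline) differed by log2 0.26 (standard error 0.25) and Hcrtr2 (6.95 and 7.69 CPM) by log2 -0.20 (standard error 0.17). The lowest Hcrtr2 library, psilocybin replicate 5 with 2.87 CPM against 6.27 to 8.87 CPM in the rest of its group, was also the library with the highest hypothalamic marker sum. Without it the log2 difference at 4 weeks was -0.081 for Hcrtr2, 0.14 for Hcrtr1, 0.18 for Mchr1, 0.28 for Hcrt and 0.071 for Pmch.

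In the PFC at 3 h, 0 of the 5 genes was called, against 0.0105% of all genes (2 of 18971) by edgeR's quasi-likelihood fit, with 1371 genes at an unadjusted p under 0.05 and 9 called by DESeq2. With voom and quality weights limma called 1232 genes, more of them higher than lower after psilocybin and none of them a member. Hcrtr1 had the smallest p of the members. It lay between 0 and 3.92 CPM (median 1.64 CPM) after psilocybin and between 0.699 and 4.06 CPM (median 2.48 CPM) after saline. The groups overlapped, with 2 of 8 psilocybin libraries above the saline median. The log2 difference was -0.60 (standard error 0.28, 95% interval -1.15 to -0.051, Benjamini-Hochberg adjusted p = 0.670 by edgeR's quasi-likelihood fit). Psilocybin replicate 7 had 0 counts of 15282753, which allows up to 0.205 CPM at 3 counts, and without it the difference was -0.42. It was -0.15 within cages 1 to 4 and -1.04 within cages 5 to 8.

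The groups overlapped for Hcrtr2 and Mchr1 in the PFC at 3 h, with 1 psilocybin library above all saline libraries for each gene. Hcrtr2 lay between 1.27 and 3.52 CPM (median 2.38 CPM) after psilocybin and between 1.07 and 3.28 CPM (median 2.37 CPM) after saline, with a log2 difference of 0.045 (standard error 0.19, 95% interval -0.33 to 0.42). Mchr1 lay between 16.5 and 25.7 CPM (median 22.2 CPM) after psilocybin and between 16.3 and 23.9 CPM (median 19.3 CPM) after saline. The log2 difference of Mchr1 was 0.13 (standard error 0.093, interval -0.058 to 0.31, adjusted p = 0.805 in the same edgeR test), and 7 of 8 psilocybin libraries exceeded the saline median. The 5 striatal markers were likewise estimated higher (median log2 0.32), with sums between 107 and 330 CPM after psilocybin and between 99.2 and 315 CPM after saline. Hcrt had 3 counts in all after psilocybin and 12 after saline, and Pmch had 29 and 14, too few for a fold change. Without psilocybin replicate 7 the log2 difference was 0.12 for both Hcrtr2 and Mchr1.

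At 4 weeks in the PFC none of the 5 genes was called, against 0% of all genes, with 456 genes at an unadjusted p under 0.05 and 19 called by DESeq2. Hcrtr1 lay between 1.58 and 4.22 CPM (median 2.75 CPM) after psilocybin and between 2.00 and 4.55 CPM (median 2.79 CPM) after saline (log2 -0.12, standard error 0.27). Hcrtr2 lay between 1.08 and 2.42 CPM (median 1.66 CPM) and between 0.890 and 2.86 CPM (median 1.52 CPM), a log2 difference of 0.037 (standard error 0.20). The levels of Mchr1 were 14.0 to 24.5 CPM (median 19.4 CPM) after psilocybin and 19.4 to 26.1 CPM (median 21.0 CPM) after saline, with 3 of 7 psilocybin libraries below every saline library. Its log2 difference was -0.15 (standard error 0.096, 95% interval -0.34 to 0.045), and each of the 5 genes had a Benjamini-Hochberg adjusted p of 1 by edgeR's quasi-likelihood fit. The 5 striatal markers were estimated lower as well (median log2 -0.53), and saline replicate 6 had a striatal sum of 944 CPM against a median of 113 CPM in its group. Without that library the log2 difference was -0.10 for Mchr1 and the median over the striatal markers was 0.083. Hcrt had 19 counts in all after psilocybin and 20 after saline, and Pmch had 92 and 49.

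**Figure D4:**
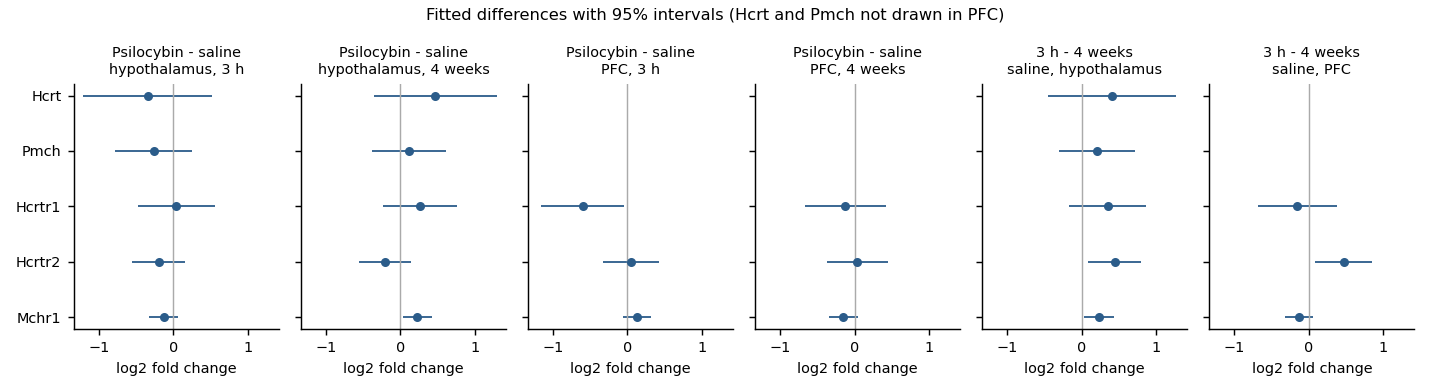
Log2 difference of each gene (points) with its 95% interval (lines) in the 4 comparisons of psilocybin with saline and between 3 h and 4 weeks after saline in each region. No gene drawn had an adjusted p under 0.05, Hcrt has the widest intervals in the hypothalamus, and Hcrt and Pmch are not drawn for the PFC, where they had too few counts.

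The psilocybin effect was also compared between harvests and between regions. None of the 5 genes passed in any of these 3 tests, against 0% of all genes each time by edgeR's quasi-likelihood fit, with 999, 585 and 528 genes at an unadjusted p under 0.05. The effect on Mchr1 in the hypothalamus at 3 h minus that at 4 weeks was -0.36 on the log2 scale (standard error 0.14, 95% interval -0.63 to -0.079, Benjamini-Hochberg adjusted p = 0.904 by edgeR's quasi-likelihood fit). In the PFC the same difference was 0.28 (standard error 0.13, adjusted p = 1 in the same edgeR test). The 5 striatal markers had the sign of Mchr1 in both, with a median of -0.92 in the hypothalamus and 0.85 in the PFC. For psilocybin against saline in the PFC at 4 weeks their median was -0.53, and 0.083 without saline replicate 6. Over the 31 PFC libraries Mchr1 and the striatal sum had r = 0.249 (permutation adjusted p = 0.363). It was 0.0325 without the 2 libraries farthest from the median of the sum. Within cages 1 to 4 and 5 to 8 r was 0.180 and 0.325. The part of striatal tissue in the PFC level of Mchr1 was not tested. The effect on Hcrt in the hypothalamus differed between the harvests by -0.81 (standard error 0.59) and that on Hcrtr1 between PFC and hypothalamus at 3 h by -0.64 (standard error 0.38). The intervals of the last values include 0. Without psilocybin replicate 5 of the hypothalamus at 4 weeks the first value was -0.31 for Mchr1 and -0.65 for Hcrt, and without psilocybin replicate 7 of the PFC at 3 h the PFC value was 0.27 for Mchr1 and the difference between regions was -0.46 for Hcrtr1. DESeq2 called 0, 4 and 0 genes in these tests and limma with voom 0, 1 and 8, none of them a member.

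The pathway lists were counted in the same comparisons. Of the 13 lateral hypothalamic, 11 peptide processing, 12 receptor signalling and 11 other hypothalamic genes tested, 0 were called in each of the 4 comparisons of psilocybin with saline. In the hypothalamus at 3 h the smallest p of these lists were those of Vgf (log2 -0.32, standard error 0.17), a secreted granin-like protein, and Lhx9 (log2 0.68, standard error 0.36). At 4 weeks in the hypothalamus they were those of Pcsk1n (log2 1.00, standard error 0.38, adjusted p = 0.448 by edgeR's quasi-likelihood fit), an inhibitor of prohormone convertase, and Oxt and Arrb2 (log2 0.94 and 0.21, adjusted p = 0.473 each in that test). Without psilocybin replicate 5, the library with the highest hypothalamic marker sum, these differences were 0.26 for Pcsk1n, 0.21 for Oxt and 0.034 for Arrb2. The median log2 difference over the lateral hypothalamic list was -0.020 at 3 h and 0.086 at 4 weeks, beside -0.00081 and 0.0097 over all genes, and 0.017 at 4 weeks without that library.

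Saline-treated mice harvested at 3 h were compared with those harvested at 4 weeks, which differ in time since the injection and in age. In the hypothalamus 0 of the 5 genes was called, against 0.685% of all genes (130 of 18971) by edgeR's quasi-likelihood fit. Hcrtr2 lay between 9.79 and 11.6 CPM (10.7 ± 0.676 CPM, SD, n = 7) at 3 h and between 6.81 and 8.94 CPM (7.87 ± 0.775 CPM, SD, n = 8) at 4 weeks. The groups did not overlap, as was the case for 0.859% of all genes. The log2 difference was 0.45 (standard error 0.18, 95% interval 0.093 to 0.80, Benjamini-Hochberg adjusted p = 0.393 by edgeR's quasi-likelihood fit), with 0.35 in cages 1 to 4 and 0.51 in cages 5 to 8. It passed in 2 other settings, voom with quality weights (log2 0.46, limma's adjusted p = 0.000147) and a fit of these 2 groups alone (log2 0.43, adjusted p = 0.00312 by edgeR's quasi-likelihood fit). Both settings also called more of all genes, 1376 of 18971 with voom and 661 of 16591 in the fit of the 2 groups. The oligodendrocyte sum lay between 5553 and 8161 CPM at 3 h and between 4596 and 7040 CPM at 4 weeks. The choroid plexus sum lay between 9.53 and 61.2 CPM and between 8.82 and 1186 CPM. That of the thalamic markers lay between 189 and 562 CPM and between 223 and 540 CPM. The part of such tissue in the level of Hcrtr2 was not tested.

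Mchr1 in the hypothalamus had a log2 difference of 0.24 between the saline harvests (standard error 0.10, Benjamini-Hochberg adjusted p = 0.452 by edgeR's quasi-likelihood fit), with 0.47 in cages 1 to 4 and 0.040 in cages 5 to 8. All 7 libraries at 3 h exceeded the 4 weeks median, and 2 exceeded every 4 weeks library. The 5 striatal markers were estimated higher at 3 h too (median log2 0.29). Hcrtr1 differed by log2 0.35 (standard error 0.26), Hcrt by 0.41 (standard error 0.43) and Pmch by 0.21 (standard error 0.25). Each of the 5 genes was estimated higher at 3 h by the fit, and none of them passed the test. The median of Hcrt went the other way, 32.9 CPM at 3 h and 36.3 CPM at 4 weeks. Of its 7 libraries at 3 h, 3 lay above the 4 weeks median. Within cages 5 to 8 the difference of Pmch was -0.067.

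In the PFC of saline-treated mice, 0 of the 5 genes was called, against 4.72% of all genes (896 of 18971). Hcrtr2 lay between 1.07 and 3.28 CPM (median 2.37 CPM) at 3 h and between 0.890 and 2.86 CPM (median 1.52 CPM) at 4 weeks. The groups overlapped, with 7 of 8 libraries at 3 h above the 4 weeks median. Its log2 difference of 0.47 (standard error 0.19, 95% interval 0.080 to 0.86, Benjamini-Hochberg adjusted p = 0.166 by edgeR's quasi-likelihood fit) was close to that in the hypothalamus, and the 2 were estimated from different libraries of largely the same mice. Hcrtr1 (log2 -0.15, standard error 0.27) and Mchr1 (log2 -0.13, standard error 0.093) differed less. The striatal markers were 5 of 5 estimated lower at 3 h (median log2 -0.93), and without saline replicate 6 at 4 weeks, the library with the highest striatal sum, 4 of 5 were (median -0.20) and the difference of Mchr1 was -0.089.

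Peptide traces in the PFC were followed together with other hypothalamic genes. Of 31 PFC libraries, psilocybin replicate 5 at 4 weeks had the most Pmch (50 counts) and the most Hcrt (9 counts), and its hypothalamic marker sum was 5.57 CPM, the seventh highest in the region. Over the PFC libraries Pmch and this marker sum had an r of 0.0710. Between the saline harvests, 3 of 13 lateral hypothalamic genes (Nts, Gal and Trh) and 3 of 11 genes of other hypothalamic nuclei (Foxb1, Otp and Nkx2-1) were called lower in the PFC at 3 h than at 4 weeks, against 2.34% of all genes lower. These genes had group medians between 0 and 1.37 CPM in the PFC, and no fold changes are given at these levels. The calls depended on saline replicate 3 at 4 weeks, whose hypothalamic marker sum of 15.9 CPM stood apart from its group's median of 3.66 CPM (3.26 CPM at 3 h) and which had the highest level of Gal (4.24 CPM), Trh (9.29 CPM) and Otp (1.29 CPM) in its group. Without replicate 3, 0 of the 6 genes were called by the same edgeR test (3 of them, Nts, Foxb1 and Nkx2-1, at an unadjusted p under 0.05), while 5 of the 6 were called without saline replicate 6, which had the highest Nts (12.3 CPM), Nkx2-1 (1.48 CPM) and Foxb1 (0.297 CPM). Igfbp3 of the lateral hypothalamic list was higher (log2 0.40), as was Gna11 of the receptor signalling list (log2 0.20), against 2.39% of all genes, and both were called without replicate 3 (log2 0.42 and 0.21). In these groups Pmch had 14 counts at 3 h and 49 at 4 weeks (adjusted p = 0.433 in the same edgeR test). The part of hypothalamic tissue in the PFC traces was not tested.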

How the data were processed

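Per the study's methods, the authors demultiplexed reads with bcl2fastq 2.20.0, aligned paired reads from a stranded poly(A) library protocol to GRCm38 with STAR 2.7.2b, and counted read pairs on GENCODE genes with featureCounts 1.6.2. The deposited values are raw counts of each gene in each library, neither scaled nor filtered nor pooled. Pairs were counted where both ends mapped to 1 strand, and whether the counting was strand-specific is not given in the sources used here. The 2 libraries under 1000000 counts were left out. The study also left out a sample rich in wound-healing and immune genes that its text does not name, and that sample was kept here. In the library with the highest sum of such markers, saline replicate 6 of the hypothalamus at 4 weeks, it was 149 CPM, against a median of 3.47 CPM.

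From these counts, filterByExpr (grouped, minimum count 10) kept 18971 of 55401 genes. Libraries were scaled by TMM, and edgeR 4.0.16 in R 4.3.3 fitted all 8 groups and the extraction pools together (robust quasi-likelihood test, Benjamini-Hochberg adjustment over all genes tested, threshold 0.05). CPM values use TMM-scaled library sizes. Levels per kilobase divide CPM by the annotated exon length. Correlations and neighbouring levels were tested with 100000 resamples (pseudocounts of 1 on CPM and 0.1 on CPM per kilobase). Promoters and symbols came from RefSeq and the reference tables, which matched 55141 identifiers. Alternatives were DESeq2-type size factors, no filter, no extraction pool, a replicate block, all 64 libraries, DESeq2 1.42.0, voom with quality weights, duplicateCorrelation and limma 3.58.1, the contrast's groups alone, and each library left out. Chosen after seeing the data were fits of cages 1 to 4 and of cages 5 to 8, the pool removed from the correlation of Hcrt with Pmch, the spread and the most alike genes without the library of lowest voom weight of each region, and the gene lists without single libraries with the highest hypothalamic or striatal marker sum.

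Replicate numbers are cage numbers in the labels. Same-numbered libraries of a region had a mean correlation of 0.0723 (hypothalamus) and 0.0806 (PFC) between deviations from group means, and -0.0236 and -0.0415 with the pool removed. The hypothalamus and PFC libraries with the same number, treatment and harvest came from the same mouse. No 2 of the 210 pairs of libraries within groups held identical values, and the lowest chi-square per degree of freedom was 3.85. The depth of a library limits the precision of low counts, and floors cover counting error only.

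The 5 genes are always named, with the 3 genes most like each by Pearson's r and, from the pathway lists, genes that were called or had the smallest p. Members, lists and rule were chosen with earlier results of these data known.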

Additional observations from a re-analysis of the deposited data

Results flagged for a closer look

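Single libraries far from the rest of their group were looked for in the 5 genes of the 8 groups, 40 sets of values, and chance alone marks about 1 in 20 such sets. In the hypothalamus, Hcrt was 129 CPM in psilocybin replicate 4 at 4 weeks, against 7.10 to 58.1 CPM in the others of its group. Hcrtr2 was 13.3 CPM in psilocybin replicate 2 at 3 h, against 7.81 to 9.90 CPM in the others. Hcrtr2 was 2.87 CPM in psilocybin replicate 5 at 4 weeks, against 6.27 to 8.87 CPM. In the PFC, psilocybin replicate 5 at 4 weeks had 0.395 CPM of Hcrt, against 0 to 0.162 CPM, and 2.19 CPM of Pmch, against 0 to 0.732 CPM in the others.

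The library of saline replicate 2 of the hypothalamus at 3 h, left out of the comparisons for its depth of 211111 counts, held 14 counts of Hcrt, 38 of Pmch and 8 of Mchr1, each above the limit of 3 counts that a count of 0 allows.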

How the results depend on the processing

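The values of Hcrt and Pmch rested on few counts in the PFC and on libraries that varied widely within groups in the hypothalamus. Each mouse gave 1 library of each region, so differences between mice and between dissections cannot be told apart. The calls of the 3 receptor genes between the regions were kept in each alternative, and no member was called between psilocybin and saline in any of them. Of 450 values over alternatives other than leaving out a library, 437 kept direction and side of the threshold and 11 turned sign. The number of members called between the saline harvests of the hypothalamus rose from 0 to 1 (Hcrtr2) with voom, which called 1376 of 18971 genes, and with only the groups of the contrast, where 661 of 16591 were called, beside 130 of 18971, and the cause was not tested.

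Within cages 1 to 4 the log2 difference turned to 0.25 for Hcrt (psilocybin, hypothalamus, 3 h), -0.21 for Hcrtr2 (psilocybin, PFC, 4 weeks) and -0.019 for Hcrtr2 in the hypothalamus difference between harvests. Within cages 5 to 8 it turned to -0.023 for Pmch (psilocybin, hypothalamus, 4 weeks), -0.11 for Hcrtr2 (psilocybin, PFC, 3 h), -0.067 for Pmch (saline harvests, hypothalamus), 0.065 for Hcrtr1 (saline harvests, PFC) and -0.32 for Hcrtr2 in the PFC difference between harvests. That PFC value was -0.027 with no extraction pool, and the hypothalamic value for Hcrtr2 was -0.255 with voom. With the replicate block it was -0.014, and the block, by cage within a region and by animal between regions, changed no call of a member.

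Leaving out each library in turn turned 34 of 867 values, in 6 results. The ranges were -0.015 to 0.086 for Hcrtr1 (psilocybin, hypothalamus, 3 h), -0.073 to 0.12 and -0.073 to 0.15 for Hcrtr2 (psilocybin, PFC, 3 h and 4 weeks), -0.31 to 0.019 for Hcrtr1 (saline harvests, PFC), and -0.11 to 0.080 and -0.12 to 0.12 for Hcrtr2 in the differences between harvests (hypothalamus and PFC). The r of Hcrt and Pmch ranged from 0.775 to 0.879, and was 0.819 with the pool removed, 0.860 with group means kept, 0.866 with a pseudocount of 0.1 and 0.850 with plain library sizes.

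Counts of called genes over all genes tested, whose number differed between settings, moved more. For psilocybin in the PFC at 3 h they ran from 0 to 1232 (voom) beside 2, and for the saline harvests from 12 (cages 5 to 8) to 1376 (voom) beside 130 in the hypothalamus and from 44 (cages 5 to 8) to 1146 (DESeq2) beside 896 in the PFC. DESeq2 called 13 and 19 genes for psilocybin at 4 weeks in the hypothalamus and PFC, beside 0 in each.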
